A study of Homo sapiens with 6 samples.

Results

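This account covers 8 keratin genes (KRT7, KRT8, KRT10, KRT18, KRT19, KRT80, KRT81 and KRT86) and the nestin gene NES, chosen by symbol. All 9 were found among the 30051 genes of the count table, and all 9 passed the filter on low counts. The RNA came from MDA-MB-231 cells, an established line of human triple-negative breast cancer of the claudin-low type. The 3 control libraries were cells given DMSO (replicates 1, 2 and 3, 0 nM). The 3 treated libraries were cells given panobinostat, an inhibitor of most histone deacetylases, at 50 nM for 24 h (replicates 1, 2 and 4). All libraries share this 1 line, grown in medium with serum and with no genetic change. The labels describe independent repeats but not how they were kept apart, so p-values measure the spread between these libraries.

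Keratins are the intermediate filament proteins of epithelial cells. A filament is built from pairs of a type I chain (here KRT10, KRT18 and KRT19) and a type II chain (here KRT7, KRT8, KRT80, KRT81 and KRT86), so a cell needs both. KRT8 and KRT18 pair in simple epithelia, and KRT7 and KRT19 are added in ducts such as those of the breast. Nestin is an intermediate filament protein known from neural stem cells, which forms filaments together with vimentin and is also found in triple-negative breast cancers.

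Library totals were 5389638 to 15106148 counts. Levels are given as CPM, counts per 1000000 of a library total scaled with TMM factors (edgeR's correction for RNA composition), with mean ± SD over n = 3. Changes are log2 fold changes of panobinostat over DMSO ± SE, from edgeR's quasi-likelihood test on 13341 genes, and adjusted p is by Benjamini-Hochberg over those genes. A gene was called where it was under 0.05. Panobinostat replicate 4 lay between the groups: its score on the first principal component was 18.3, against 63.0 and 63.9 in the other treated libraries and -49.1 to -47.6 in DMSO. In bulk RNA, more cells that express a gene and more RNA per cell cannot be told apart. Of the markers of the line, VIM was at 2567 ± 9.13 and CD44 at 761 ± 2.02 CPM in DMSO. CDH1 had 1 count over all 6 libraries. ESR1 had 5 counts in DMSO and 13 in panobinostat, and PGR 2 and 19. EPCAM and the claudin genes were looked for as low or absent. In DMSO EPCAM was at 18.5 ± 1.66, CLDN7 at 15.5 ± 0.503 and CLDN4 at 1.24 ± 0.378 CPM. CLDN3 had 1 count in DMSO and 7 in panobinostat. ERBB2 fell from 62.4 ± 1.21 to 43.6 ± 4.36 CPM (-0.52 ± 0.092, adjusted p = 0.00306). Summed leukocyte markers were at 0.427 to 0.932 CPM in DMSO and 1.96 to 3.55 in panobinostat. Of their 4 genes 1 was tested, and it was called higher (CD14). PTPRC and ITGAM were at 0 counts in DMSO and 2 in panobinostat. Summed endothelial markers were at 16.1 to 20.5 and 37.3 to 56.9 CPM. Of their 4 genes 2 were tested, and 1 was called higher (KDR). PECAM1 went the other way, at 6.88 ± 1.14 and 4.64 ± 1.28 CPM (-0.58 ± 0.23, not called, adjusted p = 0.0598). It was called lower without panobinostat replicate 4 (-0.77, adjusted p = 0.000701). CDH5 had 3 and 8 counts. Summed fibroblast markers were at 17.8 to 20.0 and 59.0 to 101 CPM. Of their 6 genes 2 were tested, and both were called higher (COL1A1 and PDGFRB). COL1A2 and DCN were at 0 counts in DMSO and 1 in panobinostat. CD14, with 8, 3 and 3 counts in DMSO, and PDGFRB, with 14, 6 and 8, passed the filter only through panobinostat. Neither could have been called lower. Among all tested genes 30.2% were called higher. The part of these markers in the results was not tested.

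Several of the 9 genes have close copies in the genome, which bears on how reads can be assigned. Words of 50 bases from 1 GENCODE 29 transcript of each gene were looked up in the transcripts of all other genes. NES and KRT10 shared 0% of their words, KRT80 0.420%, KRT7 0.997% and KRT19 1.79%. The share was 31.8% for KRT18 and 41.3% for KRT8, whose closest matches were their own pseudogenes, and 44.6% for KRT81 and 40.5% for KRT86, whose closest match was each other. The coding sequences of KRT81 and KRT86 were identical at 1368 of 1448 aligned bases (94.5%), with 1 identical run of 605 bases. A coding stretch of 120 bases with 0 differences is printed to show what a read cannot separate (coding bases 61 to 180 of both, 5′ to 3′ on the coding strand). It lies at chr12:52291286-52291405 on the minus strand for KRT81 and at chr12:52301977-52302096 on the plus strand for KRT86 (GRCh38, GENCODE 29).
KRT81: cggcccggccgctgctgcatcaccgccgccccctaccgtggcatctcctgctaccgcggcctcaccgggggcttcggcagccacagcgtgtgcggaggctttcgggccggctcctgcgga
KRT86: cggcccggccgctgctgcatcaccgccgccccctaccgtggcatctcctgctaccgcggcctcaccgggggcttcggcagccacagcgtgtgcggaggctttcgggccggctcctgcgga

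The stretch of that length with the most differences, 19, is printed to show what a read can separate. It holds coding bases 1207 to 1326 of both genes, joined across an intron, within chr12:52286447-52287142 for KRT81 and chr12:52306240-52308450 for KRT86. Capitals mark the bases that differ.
KRT81: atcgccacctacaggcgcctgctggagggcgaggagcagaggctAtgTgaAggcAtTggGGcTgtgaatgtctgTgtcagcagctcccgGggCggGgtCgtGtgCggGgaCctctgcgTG
KRT86: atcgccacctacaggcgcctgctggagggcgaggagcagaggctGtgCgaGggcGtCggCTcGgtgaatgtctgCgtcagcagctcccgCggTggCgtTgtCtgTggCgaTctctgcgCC

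RefSeq promoter sequences on GRCh38.p14 were matched for 3 of the 9 genes (KRT8, KRT10 and NES). Those of NES, which rose, and KRT10, which fell, are printed to set a rising and a falling gene side by side. Each is the 250 bases before the annotated start, on the minus strand, at chr1:156677408-156677657 for NES and chr17:40822615-40822864 for KRT10. Capitals mark matches on either strand to the GC box, the TATA box and the CCAAT box, and the matches do not overlap.
NES: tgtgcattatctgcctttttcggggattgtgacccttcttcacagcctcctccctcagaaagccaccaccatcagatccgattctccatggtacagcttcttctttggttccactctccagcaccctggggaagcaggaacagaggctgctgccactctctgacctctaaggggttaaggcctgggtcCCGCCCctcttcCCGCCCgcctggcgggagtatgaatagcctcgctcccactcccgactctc
KRT10: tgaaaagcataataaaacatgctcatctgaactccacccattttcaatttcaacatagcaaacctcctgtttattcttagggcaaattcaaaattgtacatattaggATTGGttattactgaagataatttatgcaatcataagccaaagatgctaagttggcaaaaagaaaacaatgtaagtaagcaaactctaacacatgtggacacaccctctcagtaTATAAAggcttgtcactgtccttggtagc

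The NES window held 2 GC boxes (GGGCGG, here on the reverse strand) and neither of the other motifs. The KRT10 window held 1 TATA box (TATAAA) and no GC box. It also held 1 CCAAT box, on the reverse strand. The KRT8 window, which lies inside the annotated span of its gene, held none of the 3. Of 35116 promoter windows of this length, 42.6% held a GC box, 10.7% a TATA box and 32.0% a CCAAT box. CpG dinucleotides numbered 8 in the NES window, 0 in that of KRT10 and 1 in that of KRT8, against a median of 11. These matches describe letters only.

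Of the 9 genes, 4 rose (KRT19, NES, KRT86 and KRT81), 3 fell (KRT7, KRT18 and KRT10) and 2 were not called (KRT8 and KRT80). Of all tested genes 30.2% were called higher, 28.6% lower and 58.9% in either direction. The 4 rises were at least 2-fold, which 10.9% of all tested genes reached upward, and 0 of the falls were, against 4.66% downward. Without panobinostat replicate 1, KRT81 was under 2-fold (log2 fold change 0.96). Treated and control libraries did not overlap in 7 of the 9, 4 of them higher and 3 lower, against 69.0% of all tested genes, 35.0% higher and 34.0% lower. The median log2 fold change was 0.057 over the 9 and 0.0028 over all tested genes. Without panobinostat replicate 4, 4 were called higher and 3 lower, against 74.6% of the genes then tested (37.6% higher and 36.9% lower). At least 2-fold, these were 4 higher and 0 lower, against 13.7% and 9.21%.

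**Figure D1:**
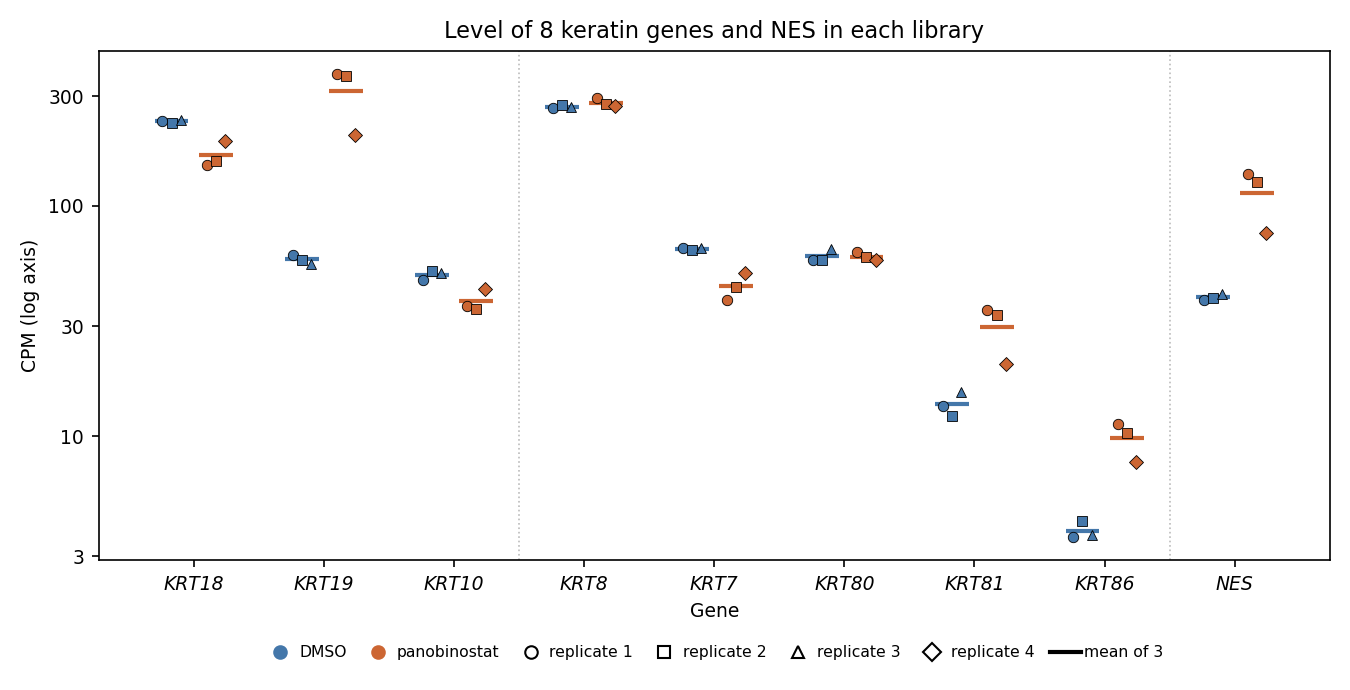
CPM on a log axis of each gene in the 6 libraries, with the groups by colour, a symbol for each replicate number and a bar at the mean of 3 libraries. KRT19 lies at 56.2 to 61.4 CPM in DMSO and 203 to 375 in panobinostat, while KRT8 lies between 267 and 294 in all 6 libraries.

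The type I keratins moved in opposite directions. KRT19 encodes the smallest keratin, which lacks most of the tail domain. It was at 61.4, 58.2 and 56.2 CPM in DMSO and 375, 367 and 203 CPM in panobinostat (replicates in the order given above). Every treated library lay above every control, and replicate 4 was the lowest of the treated. The mean rose 5.37-fold, from 58.6 ± 2.61 to 315 ± 97.0 CPM, with a log2 fold change of 2.42 ± 0.22 (adjusted p = 0.000591). It ranked 340 of 13341 tested genes from the highest rise.

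KRT18 encodes the usual partner of KRT8. It was at 234, 229 and 237 CPM in DMSO and 151, 157 and 192 CPM in panobinostat. The treated libraries lay below the controls, replicate 4 nearest to them. The log2 fold change was -0.49 ± 0.094 (adjusted p = 0.00419). KRT10 encodes the type I keratin of the upper epidermis. It was at 47.6, 51.9 and 51.2 CPM in DMSO and 36.7, 35.5 and 43.5 CPM in panobinostat, again without overlap. Its log2 fold change was -0.38 ± 0.10 (adjusted p = 0.0134). The call of KRT10 was lost without DMSO replicate 2 (adjusted p = 0.0535) and without panobinostat replicate 1 (0.0537). Over its settings adjusted p ran from 5.15e-08 to 0.0537.

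Among the type II keratins KRT8, KRT80 and KRT7, 1 fell and 2 were not called. KRT8 encodes the main type II chain of simple epithelia. It was at 267, 274 and 269.5 CPM in DMSO and 294, 278 and 272 CPM in panobinostat. The groups overlapped, panobinostat replicate 4 lying below DMSO replicate 2. The log2 fold change of 0.057 ± 0.057 was not called (adjusted p = 0.411). KRT80, a keratin linked to epithelial differentiation, was at 58.4, 58.1 and 64.9 CPM in DMSO and 62.8, 59.7 and 58.2 CPM in panobinostat. The groups overlapped here too, and the highest library was DMSO replicate 3. Its log2 fold change of -0.00019 ± 0.081 was not called (adjusted p = 0.999), and its sign turned under 8 other settings. KRT7 encodes a keratin of glandular ducts. It was at 65.5, 64.2 and 65.8 CPM in DMSO and 39.1, 44.3 and 51.0 CPM in panobinostat. The treated libraries lay below the controls, and the log2 fold change was -0.55 ± 0.11 (adjusted p = 0.00407).

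KRT81 and KRT86, genes of type II keratins of the hair shaft, both rose. KRT81 was at 13.6, 12.2 and 15.5 CPM in DMSO and 35.2, 33.5 and 20.6 CPM in panobinostat. KRT86 was at 3.64, 4.27 and 3.72 CPM in DMSO and 11.3, 10.3 and 7.68 CPM in panobinostat. In both, the groups did not overlap and replicate 4 was the lowest treated library. The log2 fold change was 1.12 ± 0.21 for KRT81 (adjusted p = 0.00357) and 1.35 ± 0.20 for KRT86 (adjusted p = 0.00169). KRT86 had the fewest reads, with 24 counts in DMSO replicate 3 (exact Poisson 95% interval 15.4 to 35.7, counting error only). With the counts of KRT81, KRT83 and KRT86 summed, which takes out any exchange of reads among them, the log2 fold change was 1.18 ± 0.19 (adjusted p = 0.00226). KRT83 had 0 counts in DMSO and 4 in panobinostat. Counts of KRT81 per count of KRT86 were 3.58 ± 0.661 in DMSO and 3.02 ± 0.294 in panobinostat, and these ranges overlapped. KRT86 spans KRT81 on the opposite strand, and their GENCODE 29 exons share 0 bases.

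NES was at 39.2, 39.9 and 41.4 CPM in DMSO and 138, 127 and 76.3 CPM in panobinostat. The lowest treated library, replicate 4, lay above the highest control. The mean rose 2.84-fold, from 40.1 ± 1.17 to 114 ± 33.0 CPM, with a log2 fold change of 1.51 ± 0.20 (adjusted p = 0.00124). VIM, the gene of the protein that nestin needs to form filaments, was far more abundant. NES was at 1.52, 1.55 and 1.62% of VIM in DMSO and 4.72, 4.31 and 2.80% in panobinostat, a ratio of CPM that takes no account of length.

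**Figure D2:**
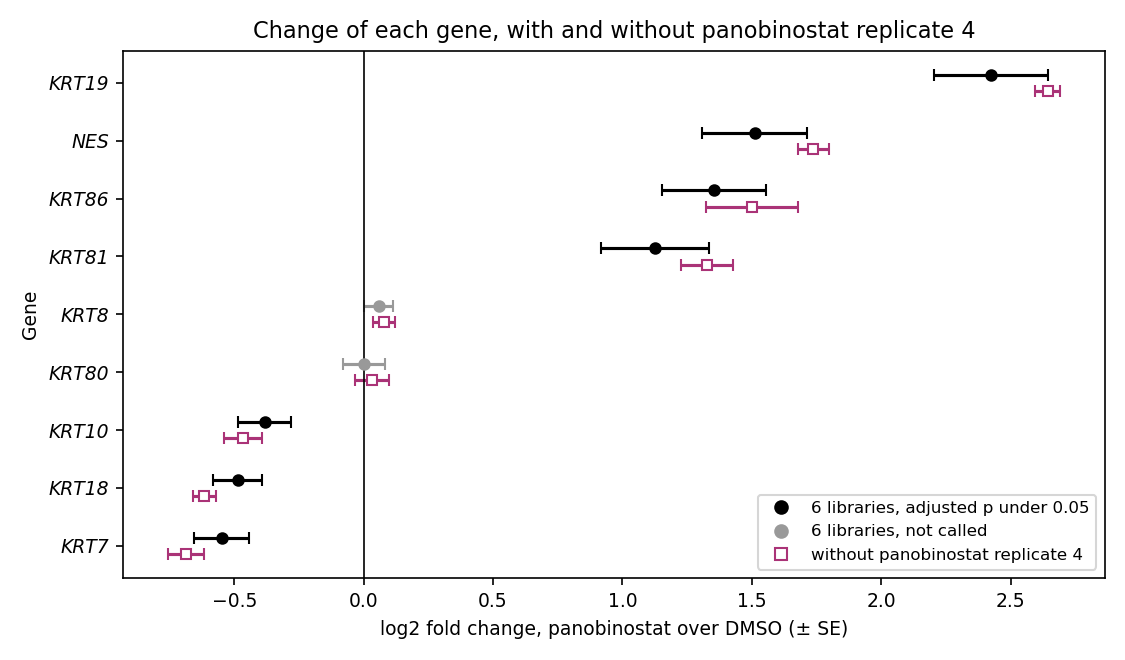
Log2 fold change (panobinostat over DMSO, ± SE) of each gene with all 6 libraries and without panobinostat replicate 4. KRT19 has the largest change of the 9 genes in both, 2.42 and 2.64, and KRT8 and KRT80 lie near 0 in both.

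In all 7 called genes panobinostat replicate 4 was the treated library nearest to DMSO. Its log2 change over the DMSO mean, as a percentage of the mean change in replicates 1 and 2, was 67.3% for KRT19, 66.7% for KRT86, 54.6% for KRT7, 53.7% for NES, 46.5% for KRT18, 44.2% for KRT81 and 43.6% for KRT10. The median over 2004 called genes of at least 2-fold was 60.6%. Without replicate 4 the log2 fold change was 2.64 for KRT19, 1.74 for NES, 1.501 for KRT86, 1.33 for KRT81, -0.69 for KRT7, -0.62 for KRT18 and -0.47 for KRT10.

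Levels were compared between genes per length, as CPM per kb of the transcript with the longest coding sequence. Neither these levels nor the shares and ratios below were corrected for words shared with other genes. Those made up 41.3% for KRT8, 31.8% for KRT18, 44.6% for KRT81 and 40.5% for KRT86. In DMSO the order was KRT8 (160.2 ± 2.0), KRT18 (149 ± 2.56), KRT19 (42.1 ± 1.88), KRT7 (37.1 ± 0.486), KRT10 (23.7 ± 1.09), KRT80 (15.7 ± 0.992), NES (7.22 ± 0.210), KRT81 (7.14 ± 0.854) and KRT86 (1.75 ± 0.154). The libraries of NES and KRT81 overlapped in this order, and those of the other neighbours did not. In panobinostat the order was KRT19 (226 ± 69.8), KRT8 (167 ± 6.68), KRT18 (107 ± 14.3), KRT7 (25.5 ± 3.40), NES (20.5 ± 5.95), KRT10 (18.1 ± 2.04), KRT80 (15.6 ± 0.599), KRT81 (15.4 ± 4.12) and KRT86 (4.402 ± 0.845). Here KRT19 overlapped with KRT8, because in replicate 4 it was at 146 against 161 for KRT8, and KRT7 overlapped with NES, NES with KRT10, and KRT80 with KRT81. Divided by all annotated exon bases instead (6881 bases for KRT8 in place of 1687), KRT18 came before KRT8 in both groups, and KRT19 was first in panobinostat as before. KRT10 (23.4) then came before KRT7 (15.9) in DMSO. In panobinostat KRT7 (10.9) moved from rank 4 to rank 8, after NES, KRT10, KRT81 and KRT80.

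The make-up of the type I keratins shifted from KRT18 to KRT19. KRT18 made up 69.2, 68.9 and 70.2% of the summed type I level per length in DMSO and 25.2, 26.4 and 42.5% in panobinostat. KRT19 made up 20.4, 19.7 and 18.7% and 70.3, 69.2 and 50.4%. In each of the 3 treated libraries KRT19 was thus the larger share, by the least in replicate 4. Among type II keratins KRT8 held 72.2 ± 0.833% in DMSO and 73.2 ± 0.685% in panobinostat, with overlap between the groups.

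The type I sum was 215 ± 1.88 CPM per kb in DMSO and 351 ± 53.6 in panobinostat, without overlap. The type II sum was 222 ± 2.11 and 228 ± 8.28, with overlap. Type II over type I was 1.02, 1.04 and 1.03 in DMSO and 0.615, 0.597 and 0.758 in panobinostat, lower in each treated library than in any control. With all annotated exon bases as length the ratio was 0.643 ± 0.0113 and 0.421 ± 0.0467. These sums count transcripts, not protein, and were not tested.

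**Figure D3:**
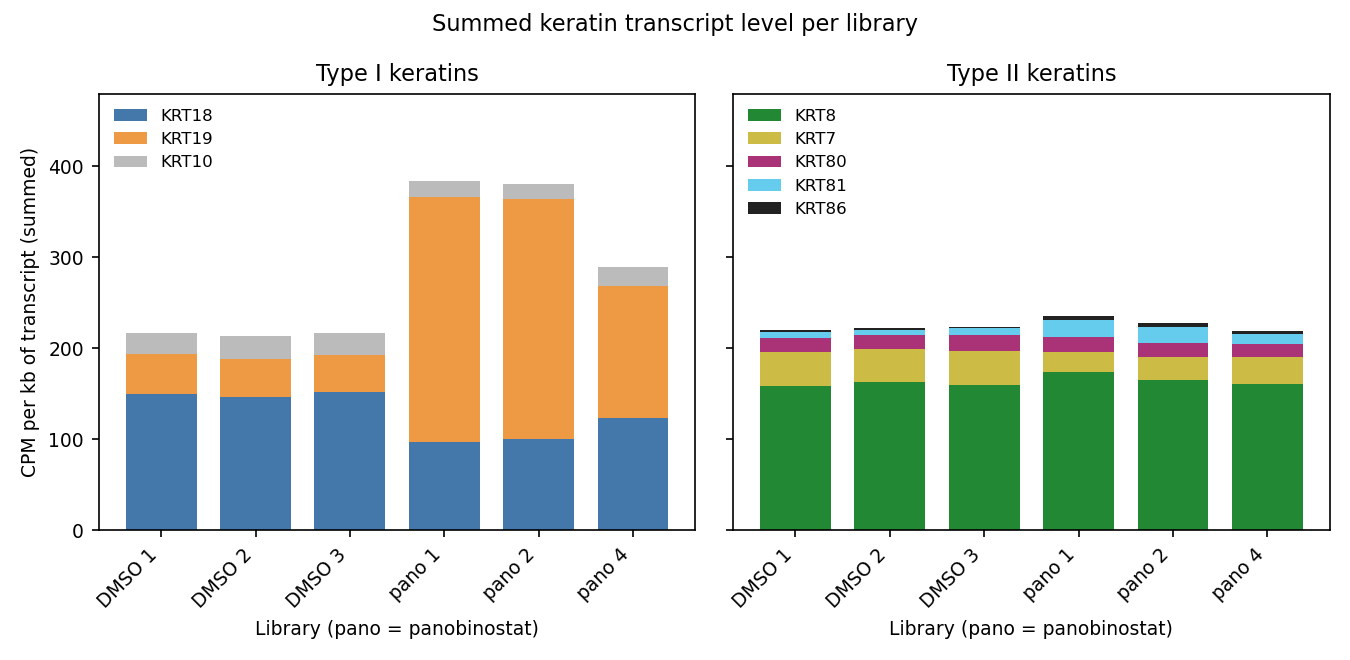
Summed CPM per kb of transcript of the type I and type II keratins in each library, as bars stacked by gene from 0. The KRT19 segment makes up 18.7 to 20.4% of the type I bar in DMSO and 50.4 to 70.3% in panobinostat, while the type II bars lie between 219 and 236.

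The partners KRT8 and KRT18 came apart in level. KRT8 over KRT18, per length, was 1.06, 1.11 and 1.05 in DMSO and 1.80, 1.64 and 1.31 in panobinostat, higher in each treated library than in any control. With all annotated exon bases as length it was 0.542 ± 0.0151 and 0.799 ± 0.127, below 1 in all 6 libraries and again higher in each treated library. The genes are neighbours on chromosome 12, KRT8 from 52897191 to 52949860 on the minus strand and KRT18 from 52948855 to 52952906 on the plus strand (RefSeq, GRCh38.p14). Their GENCODE 29 exons share 525 bases on opposite strands, 16.3% of those of KRT18. The library kit keeps strand, but whether counting used it is not stated in the labels or the file, so reads in the shared bases are uncertain. The 17 KRT8 pseudogenes in the table had 639 counts, or 4.19% of these and KRT8 together, of which KRT8P12 had 496. KRT8P12 was not called (-0.20 ± 0.15, adjusted p = 0.274). The 24 KRT18 pseudogenes had 128 counts, or 1.22% of these and KRT18 together. With pseudogene counts added, the log2 fold change was 0.053 ± 0.056 for KRT8 and -0.47 ± 0.092 for KRT18 (adjusted p = 0.443 and 0.00417).

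The other type II genes lie on chromosome 12 as well, KRT80 from 52168996 to 52192014 (not called), KRT7 from 52233243 to 52255853 (fell), KRT86 from 52274645 to 52309163 and KRT81 from 52285913 to 52291534 (both rose). The type I genes KRT10, from 40818117 to 40822614, and KRT19, from 41523617 to 41528308, lie on chromosome 17 and moved in opposite directions. NES lies on chromosome 1, from 156668763 to 156677407. KRT10 shares 56 exon bases with the gene on its other strand, KRT10-AS1 (TMEM99 in GENCODE 29), which was at 22.6 ± 3.03 CPM in DMSO and 20.8 ± 0.442 in panobinostat and was not called (-0.13 ± 0.12, adjusted p = 0.406). KRT7 shares 282 exon bases with KRT7-AS, which had 24 counts in DMSO and 14 in panobinostat and did not pass the filter.

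Most of the other keratins with a row of counts were near the lower limit of detection. Of 47 listed, 11 had such a row, and 9 of these were under 1 CPM in both groups. The level of those without a row is not known here. KRT15, a type I keratin of basal cells, was at 10.4 ± 0.301 CPM in DMSO and 9.76 ± 1.30 in panobinostat and was not called (-0.087 ± 0.15, adjusted p = 0.668). KRT79 had 30 counts in DMSO and 20 in panobinostat and did not pass the filter. The basal keratins, which mark the outer layer of the breast duct, summed to 0.310 to 0.427 CPM in DMSO and 0 to 0.394 in panobinostat over the 4 genes with a row, with KRT5 at 0 counts in all 6 libraries.

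Of 8 tested genes of the other intermediate filament proteins, 4 rose, 3 fell and 1 was not called. Among all tested genes 30.2% were called higher and 28.6% lower. The median of the 8 was -0.20 against 0.0028 over all tested genes. IFFO2 (0.66 ± 0.092), SYNM, the gene of synemin, which joins vimentin filaments (0.49 ± 0.088), and LMNA, the gene of the A-type lamins of the nucleus (0.26 ± 0.055), rose. VIM was at 2567 ± 9.13 CPM in DMSO and 2870.1 ± 123 in panobinostat (0.16 ± 0.048, adjusted p = 0.0213). It lost its call when any library but panobinostat replicate 4 was left out, with no filter and with DESeq2 (adjusted p = 0.0750 to 0.297, and 8.18e-22 to 0.297 over all settings). LMNB1 (-1.82 ± 0.51) and LMNB2 (-0.56 ± 0.12), the genes of the B-type lamins, and BFSP1, a filament gene of the lens (-0.69 ± 0.25), fell.

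Without panobinostat replicate 4, LMNB1 was at -2.86 and BFSP1 at -1.05, and without panobinostat replicate 1 BFSP1 was at -0.38. BFSP1 lost its call when any library but panobinostat replicate 4 was left out (adjusted p = 0.0662 to 0.104, and 3.42e-12 to 0.104 over all settings). LMNB1 lost it with no filter (adjusted p = 0.169, the highest of its settings). Without replicate 4, 4 of the filament genes were higher and 4 lower, against 37.6% and 36.9% of all genes then tested.

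Plakins tie intermediate filaments to junctions and to other filaments. Of 5 tested, 0 rose, 4 fell and 1 was not called, with a median of -0.18. Among all tested genes 30.2% were called higher and 28.6% lower. PLEC, the plectin gene, fell from 3849.6 ± 149.5 to 2871 ± 358 CPM (-0.42 ± 0.086, adjusted p = 0.00471), and EVPL, the envoplakin gene, from 91.0 ± 2.09 to 45.5 ± 19.3 CPM (-1.01 ± 0.24, adjusted p = 0.00869). MACF1 (-0.18 ± 0.055) and DST (-0.17 ± 0.059) fell less. MACF1 lost its call without DMSO replicate 1 or 3 or panobinostat replicate 1 or 2 (adjusted p = 0.0516 to 0.0906). DST lost it without DMSO replicate 1 or 2 or panobinostat replicate 1 or 2, and with library size only (0.0611 to 0.123). Over all settings, adjusted p went down to 1.18e-12 for MACF1 and 4.38e-14 for DST. DSP, the gene of desmoplakin, which holds keratins at desmosomes, was at 97.4 ± 3.92 and 103 ± 2.17 CPM and was not called (0.085 ± 0.067). Among those that did not pass the filter, the epiplakin gene EPPK1 had 1 count in DMSO and 63 in panobinostat, and the periplakin gene PPL 2 and 17. EPPK1 passed the filter without panobinostat replicate 4 and was then called higher (adjusted p = 2.47e-10), which gave 1 plakin higher and 4 lower of 6. With 0, 1 and 0 counts in DMSO, EPPK1 passed only through panobinostat and could not have been called lower. The shares of all genes then tested were 37.6% higher and 36.9% lower.

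Desmosomes are the junctions at which keratin filaments end. Of 7 tested genes, 2 rose, 4 fell and 1 was not called, with a median of -0.41. Among all tested genes 30.2% were called higher and 28.6% lower. JUP, the plakoglobin gene, rose from 8.38 ± 0.613 to 60.6 ± 18.5 CPM (2.85 ± 0.25, adjusted p = 0.000573), and PKP2, a plakophilin gene, from 52.8 ± 1.88 to 92.1 ± 16.5 CPM (0.80 ± 0.13, adjusted p = 0.00232). The plakophilin gene PKP3 (-1.22 ± 0.23), its relative PKP4 (-0.46 ± 0.10) and the desmosomal cadherin genes DSC2 (-1.12 ± 0.19) and DSG2 (-0.41 ± 0.073) fell. Without panobinostat replicate 4 the counts were 2 higher and 4 lower as well, against 37.6% and 36.9% of all genes then tested.

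**Figure D4:**
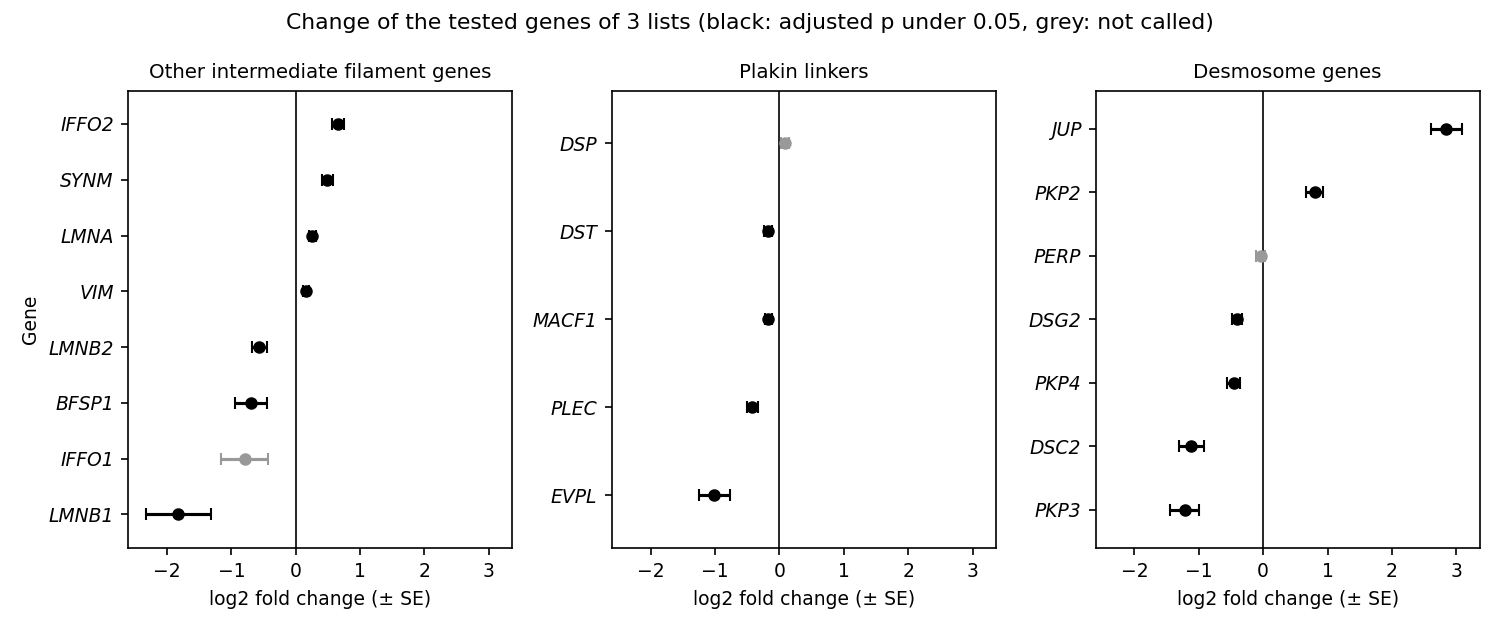
Log2 fold change (panobinostat over DMSO, ± SE) of every tested gene among the other intermediate filament genes, the plakins and the desmosome genes, with called genes in black. JUP has the largest rise, 2.85, and LMNB1 the largest fall, -1.82. Called lower were 4 of the 5 tested plakins, against 28.6% of all tested genes. Of these, MACF1 (-0.18) and DST (-0.17) lost their calls under several other settings. The plakin genes EPPK1 (1 count in DMSO and 63 in panobinostat) and PPL (2 and 17) did not pass the filter and are not shown.

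Of 10 tested genes whose products bind or modify keratins, 1 rose, 4 fell and 5 were not called, with a median of -0.19. Among all tested genes 30.2% were called higher and 28.6% lower. TCHP, the gene of the keratin-binding protein trichoplein (-1.07 ± 0.24), YWHAH, a 14-3-3 gene (-0.85 ± 0.14), PNN, the pinin gene (-0.56 ± 0.10), and CSNK1A1, a kinase gene (-0.31 ± 0.085), fell, and TRADD, the gene of an adaptor of death receptors, rose (0.52 ± 0.14). Without panobinostat replicate 4, 8 were lower and 1 higher, against 36.9% lower and 37.6% higher of all genes then tested. TCHP lost its call with no filter (adjusted p = 0.0626). CSNK1A1 lost it without DMSO replicate 1 or panobinostat replicate 1 or 2 (0.0532 to 0.0550). TRADD lost it without any of the same 3 libraries, with no filter and with DESeq2 (0.0501 to 0.0658). Over all settings, adjusted p went down to 4.57e-111 for TCHP, 6.86e-24 for CSNK1A1 and 0.000305 for TRADD.

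For this list and the neural list that follows, the shares of all tested genes were 30.2% called higher and 28.6% lower. Of 6 tested genes whose products bind, modify or join nestin, VIM and SYNM among them, 4 rose, 0 fell and 2 were not called. Their median was 0.33. CDK5, the gene of a kinase that phosphorylates nestin (0.77 ± 0.15), and CDK5R2, the gene of an activator of that kinase (2.86 ± 0.62), rose. CDK5R2 had 1, 7 and 9 counts in DMSO, passed the filter only through panobinostat and could not have been called lower. The 4 rises and the median include it. Its log2 fold change was 2.09 without DMSO replicate 1 and 3.49 without DMSO replicate 3. GFAP, with 10 counts in DMSO and 23 in panobinostat, and INA, with 0 and 1, did not pass the filter. Of 7 tested neural progenitor or neuronal genes, CDK5 among them, 4 rose, 0 fell and 3 were not called, with a median of 0.77. SOX2, the gene of a stem cell factor, rose from 0.713 ± 0.181 to 3.33 ± 0.581 CPM (2.27 ± 0.30, adjusted p = 0.00122), and POU3F2, the gene of a neural POU factor, from 2.34 ± 0.323 to 5.57 ± 1.09 CPM (1.26 ± 0.23, adjusted p = 0.00336). TUBB3, a neuronal tubulin gene (0.86 ± 0.28, adjusted p = 0.0278), lost its call without DMSO replicate 2 or 3 or panobinostat replicate 1 or 2, with no filter and with DESeq2 (0.0770 to 0.148, and 0.00311 to 0.148 over all settings). Of the 13 neural genes with a row, 6 did not pass the filter, PAX6 among them with 1 count in each group. A gene that is low in DMSO passes that filter only where it is higher in panobinostat, so these counts describe the tested genes alone. SOX2, with 6, 6 and 5 counts in DMSO, and TUBB3, with 21, 7 and 9, are among the 7 only through their panobinostat level. The 4 neural rises and their median include both. Without panobinostat replicate 4, 5 neural genes were higher and 1 lower, against 37.6% and 36.9% of all genes then tested.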

How the data were processed

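The authors' deposited file holds raw counts per gene for the 6 libraries, made with featureCounts according to its name. Per the labels' protocols a stranded mRNA kit was used, and per the submitters' processing notes the build was GRCh38.p14. No source used here names the aligner or annotation. The deposited file also holds the authors' log2 fold change and its SE, their quotient as a score, p-values and a mean normalised signal. These and the counts carry separate identifiers and were matched by identifier. A deposited sum column exceeds the 6 libraries by 23441472 counts; what the rest holds was not analysed here.

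Counts were fitted with edgeR 4.0.16 in R 4.3.3 (TMM factors, robust quasi-likelihood fit, treatment as the only term). filterByExpr kept 13341 genes, of which 8519 had an unadjusted p under 0.05. SE is the estimate divided by the root of its F statistic. The fit was tested on simulated data with few changed genes, the same spread for every gene and no library lying apart. That test therefore does not cover the effect of panobinostat replicate 4. Lengths, exons and transcripts came from GENCODE 29; 29707 identifiers had a symbol. Alternatives were other scalings and filters, DESeq2 1.42.0, limma 3.58.1 voom with and without library weights, a replicate block, each library left out, and sums over paralogs or pseudogenes. The union of exons as length, and lists and ratios without panobinostat replicate 4, were added after seeing the data. The 9 genes and all lists were chosen with earlier results of these data known. Named from each list were up to 4 called genes per direction of at least 1 CPM in a group, VIM, other keratins at that level, pseudogenes and antisense genes, and the line's markers. DSP, EPPK1, PPL, PAX6, KRT5, KRT83 and the markers of other cells at low counts were chosen after their values were seen. Likeness compared genes of at least 10 CPM. A gene near KRT19 in profile is not reported here.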

Additional observations from a re-analysis of the deposited data

How the results depend on the processing

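Of 140 refits of the 9 genes under other settings, 129 kept direction and call, 2 lost a call (KRT10, given above), 1 gained one and 8 turned in sign. All 8 turns were in KRT80, near 0: 0.015 with upper-quartile factors, 0.030 with library size only, 0.012 with limma-voom, 0.027 with library quality weights, 0.082 with the replicate block, and -0.038 to 0.031 with 1 library left out (0.031, 0.0068 and 0.031 without DMSO replicate 3, panobinostat replicate 2 and panobinostat replicate 4). The cause was not tested. With the replicate block KRT8 gained a call (0.092, adjusted p = 0.0108, highest over its settings 0.978), 5031 genes were higher and 4950 lower, and 5 of the 9 genes were higher and 3 lower. In that fit DMSO replicate 3 and panobinostat replicate 4 each stand alone in a block. Its changes thus rest on replicates 1 and 2 alone, without the library that lay apart. The upper ends given below for NES (1.77) and KRT81 (1.40) come from it, as do the lowest adjusted p of KRT10 and BFSP1 above. Replicate numbers 1 and 2 occur in both groups, but no label ties them, so they were not taken as pairs. Deviations of same-numbered libraries from their group means correlated at 0.051 and 0.0081. The panobinostat mean includes replicate 4, which lay apart, so these correlations cannot decide on pairing. Leaving out 1 library gave 3106 to 5171 genes higher and 2624 to 5078 lower, with 4 of the 9 genes higher and 2 or 3 lower. Across settings the log2 fold change ran from 2.27 to 2.64 for KRT19, 1.33 to 1.77 for NES, 1.18 to 1.501 for KRT86, 0.96 to 1.40 for KRT81, -0.69 to -0.45 for KRT7 and -0.62 to -0.42 for KRT18. Of 705 refits of 47 list genes, 661 kept direction and call, 38 lost a call, 3 gained one (IFFO1) and 3 turned in sign, all KRT15: 0.0038 with library quality weights, 0.012 with the replicate block and 0.0060 without panobinostat replicate 4 (range -0.18 to 0.0060 with 1 library left out). Of the 47 other keratins listed, 11 had a row of counts and 1 had enough counts to be tested.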

Other observations

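Transcription factors known to act at keratin genes moved both ways. Out of 18 that passed the filter 9 rose and 5 fell, and 4 were not called. Among all tested genes 30.2% were called higher and 28.6% lower. The median log2 fold change of the 18 was 0.35 against 0.0028 over all tested genes. CEBPA, with 5, 3 and 2 counts in DMSO, and GRHL1, with 19, 18 and 8, are among the 18 only through their panobinostat level. The median includes them, and genes low in both groups are left out. GRHL1, a grainyhead-like factor, rose from 1.80 ± 0.681 to 16.7 ± 7.18 CPM (3.23 ± 0.42, adjusted p = 0.00114) and ELF3, an epithelial ETS factor, from 5.20 ± 0.885 to 24.2 ± 5.92 CPM (2.24 ± 0.22, adjusted p = 0.000631). CEBPA (2.85 ± 0.43) and FOS (1.21 ± 0.20) rose as well. FOSL1 (-1.21 ± 0.25), FOSL2 (-1.01 ± 0.19), TFAP2A (-0.78 ± 0.20) and SP1, a factor that binds GC boxes (-0.67 ± 0.13), fell. FOSL1 lost its call with no filter (adjusted p = 0.0741, the highest of its settings). Without panobinostat replicate 4, 10 of these genes were higher and 6 lower, against 37.6% and 36.9% of all genes then tested. Among the epithelial surface genes, CLDN4 rose from 1.24 ± 0.378 to 4.05 ± 0.821 CPM and EPCAM fell from 18.5 ± 1.66 to 11.2 ± 2.12 CPM. CLDN7, at 15.5 ± 0.503 and 15.6 ± 1.62 CPM, was not called. CLDN4, with 19, 6 and 8 counts in DMSO, also passed the filter only through its panobinostat level.

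The genes with the nearest profile to KRT19 (the largest rise of the 9) and KRT7 (the largest called fall) were found by Euclidean distance of log2 CPM minus the DMSO mean, over 9789 genes and 6 libraries that differ by treatment. Among the nearest to KRT19 was GPRC5A (distance 0.193), at 280.4, 249 and 261 CPM in DMSO and 1588, 1489 and 920.3 CPM in panobinostat. For KRT7 they were SMAD4 (distance 0.0642, log2 fold change -0.53) and URI1 (distance 0.0649, log2 fold change -0.54).

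The libraries behind the authors' deposited comparison are not stated and may go beyond the 6 used here, so its values are not set against those above. In the authors' deposited table the log2 fold change is 1.75 for KRT19, 1.18 for NES, 0.99 for KRT86 and 0.74 for KRT81. The authors' deposited table has -0.48 for KRT7, -0.42 for KRT18, -0.36 for KRT10, and 0.045 for KRT8 and 0.023 for KRT80.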
